A study of Mus musculus with 4 samples.

Results

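The genes described here encode subunits of the mitochondrial respiratory chain and ATP synthase in Langerhans cells, a dendritic cell type of the epidermis that presents antigen. They were chosen by symbol, from the Nduf, Sdh, Uqcr, Cox4 to Cox8 and Atp5 families, and each was represented by the probe set with 1 gene symbol that had the highest mean over all 4 arrays. This gave 78 of 12393 genes, of which 32 belong to complex I, 4 to complex II, 8 to complex III, 17 to complex IV and 17 to complex V. Ndufa4 was counted with complex IV, with which its product is now grouped, despite its complex I name.

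The arrays, 2 per genotype, came from AhR-deficient mice, in which exon 2 of Ahr (the aryl hydrocarbon receptor) is disrupted, and from C57BL/6 wild types. Epidermis of the ear was cultured for 16 hours in all groups, the mice had no treatment, and living MHC class II-positive cells were then sorted. The sample titles call the samples biological replicates. Age and the number of mice behind each sample are not given in the sources used here. Technical and biological parts of the spread between replicates cannot be told apart. The receptor is missing from the whole animal, not from Langerhans cells alone, as far as the labels say. The comparison asks which transcripts of these cells differ without the receptor, a ligand-activated transcription factor.

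The respiratory chain moves electrons from NADH (complex I) and succinate (complex II) through ubiquinone, complex III and cytochrome c to oxygen at complex IV. Complexes I, III and IV pump protons across the inner mitochondrial membrane, and complex V, the ATP synthase, uses the gradient to make ATP. A few conserved core subunits carry the redox centres or catalytic sites, and many small accessory subunits surround them. All genes described here lie in the nucleus, while further core subunits are encoded by mitochondrial DNA and were not analysed here. Dendritic cells are known to lower mitochondrial respiration and to raise glycolysis when they are activated by microbial products.

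Of the 4 arrays, wild-type replicate 1 and AhR-deficient replicate 2 had high values for most subunit genes, and AhR-deficient replicate 1 and wild-type replicate 2 had low ones. Both high arrays lay above both low arrays for 50 of the 78 genes (64.1%), against 18.4% of all genes, and the reverse order was seen for 8, against 18.7% of all genes. The median over the 78 genes of the log2 value minus the gene's own mean over the 4 arrays was -0.25 and 0.11 in AhR-deficient replicates 1 and 2. It was 0.32 and -0.16 in wild-type replicates 1 and 2. Over all genes these medians lay between -0.01 and 0.01. The arrays of the 2 genotypes thus overlapped for most members, with a high and a low array in each genotype. In sorted bulk samples, fewer cells of a type and less RNA per cell cannot be told apart.

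**Figure D1:**
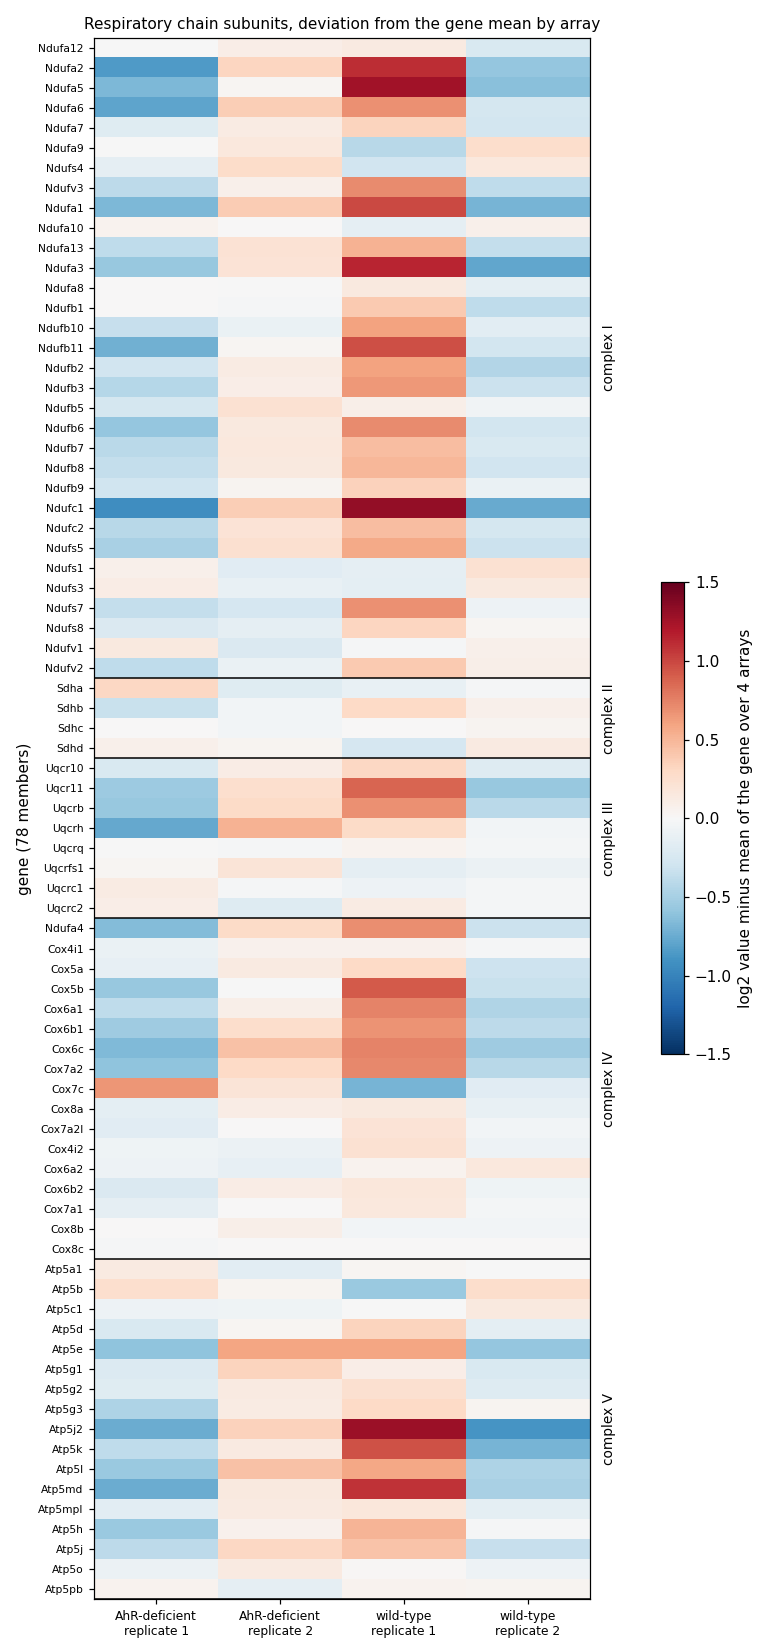
Heat map of the 78 genes (rows, by complex) on the 4 arrays (columns), with colour for the log2 value minus the mean of that gene over the 4 arrays. Most rows are red in AhR-deficient replicate 2 and wild-type replicate 1 and blue in the other 2 arrays, while complex II and the conserved core subunits of complex I are pale or mixed.

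The range over the 4 arrays was at least 1 log2 unit for 29 of the 78 genes (37.2%), against 3.35% of all genes. The median range was 0.73 for the members and 0.25 for all genes. Wild-type replicate 1 held the highest of the 4 values for 54 members (69.2%), where it did so for 27.3% of all genes. Within the wild type, replicate 1 exceeded replicate 2 for 61 members, with a median of 0.43. Within AhR-deficient cells, replicate 2 exceeded replicate 1 for 60 members, with a median of 0.32. The median difference between genotypes was smaller in size, at -0.16. It compares means of 2 arrays, which vary less than the single arrays compared within genotypes.

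**Figure D2:**
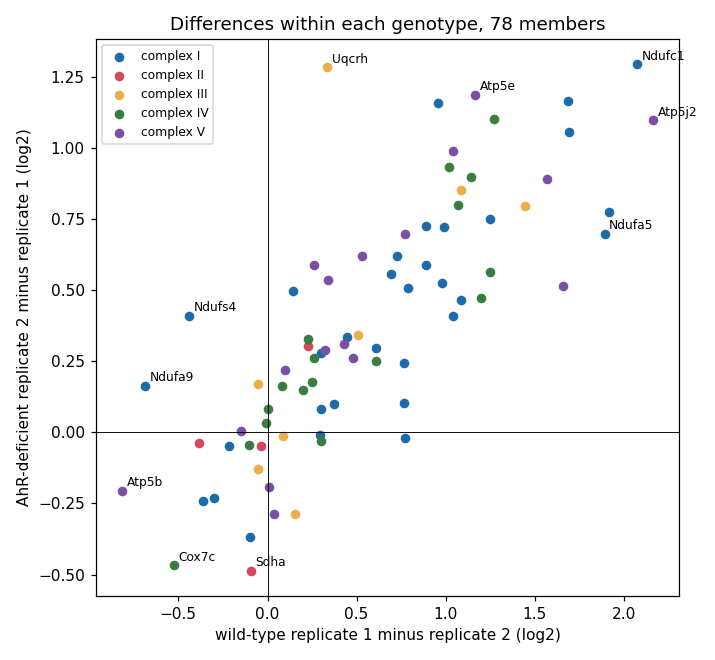
Each point is 1 of the 78 genes, with the log2 difference between the wild-type arrays on the x axis and that between the AhR-deficient arrays on the y axis, coloured by complex. Most points lie in the upper right, above 0 on both axes, and Ndufc1 and Atp5j2 lie farthest out, while Cox7c, Atp5b and Sdha lie below 0 on both axes.

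Across the 78 genes, the wild-type difference and the AhR-deficient difference had a Pearson r of 0.79, and across the 12315 genes that are no member an r of 0.26. These values describe genes on the same 4 arrays, which are not independent replicates. The axes use different arrays, but all arrays share 1 normalisation.

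The controls for RNA integrity and labelling also differed between arrays. The 3' control probe set of Actb exceeded its 5' control, on the log2 scale, by 2.34 and 2.61 without the receptor (replicates 1 and 2), against 3.16 and 2.65 in the wild type. For Gapdh the excess was 2.24 and 2.19 against 2.60 and 1.97. Wild-type replicate 1, the array with the highest subunit values, had the largest 3' excess for both controls. Within each genotype the Actb excess was larger on the array with high subunit values, and AhR-deficient replicate 1 had the smallest. For Gapdh this held in the wild type only. AhR-deficient replicate 2, the other high array, lay slightly below wild-type replicate 2 for Actb (2.61 against 2.65). It also lay slightly below AhR-deficient replicate 1 for Gapdh (2.19 against 2.24). The part of these controls in the array pattern was not tested.

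The labelled cell type was visible in its markers. Cd207, which encodes langerin, had log2 values of 11.21 and 11.71 without the receptor, against 10.9995 and 12.06 in the wild type, and all 9 Langerhans cell markers lay outside the dimmest 25% of probe sets. Keratinocyte markers (11 of 12 measured, 4 of them in the dimmest 25%) had a mean log2 value of 5.34 and 4.90 without the receptor, against 4.68 and 4.79 in the wild type. For T cell markers (7 of 9 measured) the means were 5.06 and 5.04 against 5.51 and 5.37. Melanocyte markers (4 of 5 measured) had means of 5.62 and 5.70 against 5.68 and 5.71. The Langerhans cell markers averaged 9.69 and 9.45 against 9.19 and 9.46. None of these 4 lists showed the array order of the subunits in its mean, although 4 of the 7 T cell markers did singly. Between genotypes, single markers differed in both directions without passing in limma. H2-Aa and Cd74 of the Langerhans cell list differed by 1.31 and 0.93, and Csf1r by -1.05. Of the 11 keratinocyte markers, 6 were higher without overlap in AhR-deficient cells (Dsp by 1.32), and 3 of the 7 T cell markers were lower without overlap, namely Cd3g by -1.26, Cd2 by -0.70 and Cd3d by -0.56. The shares of all genes without overlap were 18.8% higher and 16.6% lower. The part of these cell markers in the genotype differences of the subunits was not tested. Ahr itself was at 8.55 and 8.60 without the receptor, against 7.61 and 8.23 in the wild type, and its probe set is not known to lie in the deleted exon, so it does not check the labels.

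By complex, the swing between arrays was widest in complex I. Its median deviations were -0.36 and 0.11 in AhR-deficient replicates 1 and 2 and 0.49 and -0.27 in wild-type replicates 1 and 2. Complex V had -0.23 and 0.13 against 0.30 and -0.15. Complex IV had -0.15 and 0.09 against 0.21 and -0.11, and complex III had -0.12 and 0.15 against 0.21 and -0.06. Complex II, the succinate dehydrogenase that also works in the citrate cycle, had 0.04 and -0.04 against -0.05 and 0.06. The 2 arrays that were high for the other complexes were thus slightly low for complex II. Of its 4 genes, 0 had the array order of the other complexes on the chosen probe sets and 3 had the reverse. Sdhc had it within a range of 0.09 log2 units, with 8.2219 in AhR-deficient replicate 1 against 8.2217 in wild-type replicate 1. The other probe set of Sdhd had the order of the other complexes by a small margin, at 7.558 and 7.597 against 7.559 and 7.546. With so few genes this is a description.

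**Figure D3:**
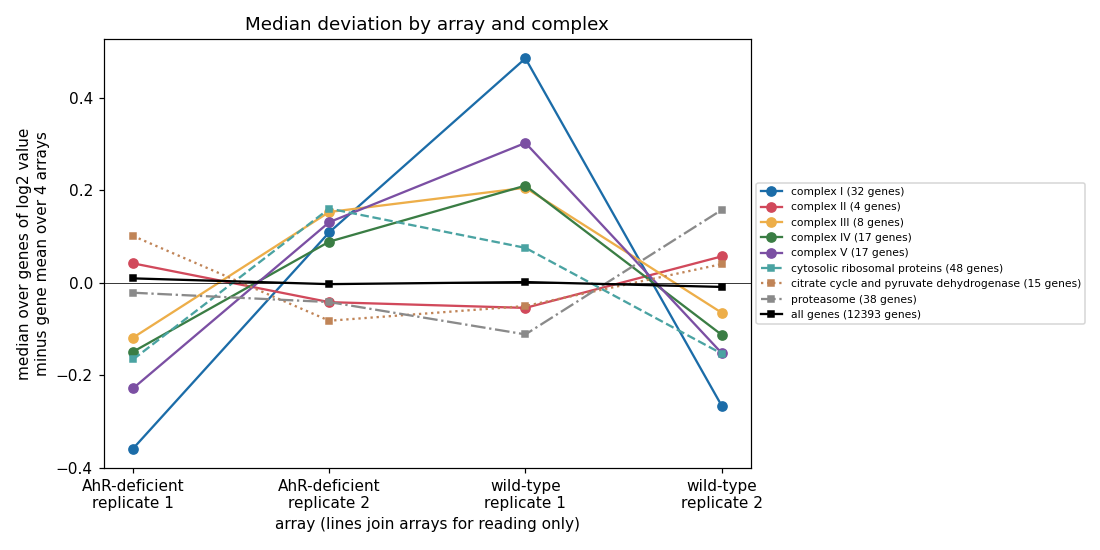
Median log2 deviation from the gene mean (y axis) on each of the 4 arrays (x axis) for complexes I to V and 4 reference groups. Complexes I, III, IV and V and the cytosolic ribosomal proteins peak in AhR-deficient replicate 2 or wild-type replicate 1, complex II and the citrate cycle genes do not, and all genes lie near 0.

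Within complex I most accessory subunits carried the array pattern and no conserved core subunit did. Of 18 accessory subunits of the membrane arm, 15 were higher on both wild-type replicate 1 and AhR-deficient replicate 2 than on both other arrays, and of 8 accessory subunits of the matrix arm, 6 were. Among the 6 measured core subunits, most of which bind the flavin or iron-sulfur clusters, the count was 0, and the reverse order was seen for 3. Neither order can occur where the genotypes do not overlap, as in Ndufv2, Ndufs7 and Ndufs8. Within the wild type these were higher on replicate 1, by 0.30, 0.76 and 0.30. Within AhR-deficient cells they were higher on replicate 2, by 0.28, 0.10 and 0.08, the same directions as most accessory subunits. This difference between roles is a description, as roles were compared with results of these data known. Many accessory subunits are small, and transcript and protein lengths were not available, so role and size cannot be told apart here. The same limit holds for the splits by role in complexes III and V below.

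The greatest range of any member was that of Ndufc1, a small membrane arm subunit. Its log2 value was 7.23 and 8.53 without the receptor, against 9.48 and 7.41 in the wild type. Each genotype thus held a high and a low array, and its genotype difference of -0.56 had an SE of 0.84. Ndufa2, a matrix arm accessory subunit, was at 6.90 and 8.07 against 8.86 and 7.17. Ndufa5, another matrix arm subunit, was at 5.97 and 6.67 against 7.90 and 6.01. The same order held in Ndufa3 and Ndufa1 of the membrane arm, with 7.88 and 8.65 against 9.59 and 7.68, and 8.85 and 9.91 against 10.52 and 8.83. These 5 genes were picked for their wide range after their values were seen.

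Of the core subunits of the NADH-oxidising module, Ndufv1 and Ndufs1 differed from them. Ndufv1, which binds the flavin that accepts electrons from NADH, was at 8.86 and 8.49 without the receptor, against 8.69 and 8.79 in the wild type. Ndufs1, the largest iron-sulfur subunit, was at 7.76 and 7.52 against 7.56 and 7.92. In both genes AhR-deficient replicate 1 exceeded AhR-deficient replicate 2, the reverse of most accessory subunits, and the genotypes overlapped. Ndufv2 of the same module was higher on wild-type replicate 1 and AhR-deficient replicate 2 within each genotype, as given above.

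Complex III repeated the split. Its accessory subunits Uqcrb, Uqcrh, Uqcr10 and Uqcr11 were higher on both wild-type replicate 1 and AhR-deficient replicate 2 than on both other arrays. Uqcrb, which binds ubiquinone near the membrane, was at 11.24 and 12.09 without the receptor, against 12.49 and 11.41 in the wild type. Its other probe set gave 6.35 and 7.50 against 7.36 and 6.43, the same order of high and low arrays at a lower signal. The core proteins Uqcrc1 and Uqcrc2 were even, with 8.43 and 8.30 against 8.23 and 8.28, and 9.97 and 9.68 against 9.99 and 9.84. Uqcrfs1, the Rieske iron-sulfur protein that passes electrons on, was at 8.09 and 8.26 against 7.93 and 7.98.

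In complex IV, cytochrome c oxidase, 8 of 9 general subunits had the array pattern. Cox6c was at 9.27 and 10.37 without the receptor, against 10.66 and 9.39 in the wild type. Cox6b1, which joins the monomers of the dimer, was at 9.92 and 10.72 against 11.13 and 10.07. Cox5b, the zinc-binding subunit, was at 10.001 and 10.56 against 11.49 and 10.24. These were high in the same arrays as the complex I accessory subunits. Cox4i1, an early assembling subunit, varied by 0.17 log2 units in all, at 10.41 and 10.57 against 10.57 and 10.49, and Cox5a was at 10.22 and 10.47 against 10.64 and 10.03. The exception among the general subunits was Cox7c, described with the genotypes below.

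Several complex IV subunits have alternative forms used in particular tissues, and these varied less than the general forms as a group. The median range over the 4 arrays was 0.29 for the 6 tissue forms, 1.21 for the 9 general forms and 0.25 for all genes. The general forms Cox6a1 and Cox7a2 ranged over 1.20 and 1.33 log2 units. Cox6a2 and Cox7a1, their heart and muscle forms, ranged over 0.28 and 0.30, and Cox7a1 was the only member in the dimmest 25% of probe sets. Cox8b, another muscle form, was at 5.69 and 5.77 without the receptor, against 5.64 and 5.64 in the wild type, and its general form Cox8a at 8.54 and 8.80 against 8.84 and 8.58, a range of 0.30. Cox4i2, the lung form that low oxygen can induce, was at 6.31 and 6.28 against 6.60 and 6.30, and its range of 0.31 exceeded that of Cox4i1. Cox6b2, a testis form, was at 4.47 and 4.80 against 4.86 and 4.63. Cox6b2 and Cox7a1 had the array pattern of the general forms, and the other 4 tissue forms did not. No call of presence came with the values, so it cannot be said from them whether these tissue forms were expressed. Cox7a2l, a relative of Cox7a2 that takes part in supercomplexes, was at 8.79 and 8.97 against 9.17 and 8.92. Ndufa4 was at 7.15 and 8.08 against 8.49 and 7.48, with the order of the general subunits.

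In the ATP synthase, all 5 small membrane subunits and all 3 c ring genes had the array pattern. Atp5j2, the f subunit of the membrane part, ranged most, at 7.33 and 8.43 without the receptor, against 9.36 and 7.20 in the wild type. The c ring is a rotor of identical subunits, encoded by 3 genes whose mature proteins are the same. Atp5g1 was at 7.35 and 7.88 against 7.65 and 7.31, Atp5g2 at 7.64 and 7.96 against 8.06 and 7.63, and Atp5g3 at 9.66 and 10.25 against 10.43 and 10.16. In Atp5g3 the second array of each genotype lay close to the other, so the order there rests on a small difference.

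The catalytic head of the enzyme behaved otherwise. Atp5a1, the alpha subunit, was at 10.65 and 10.36 without the receptor, against 10.55 and 10.51 in the wild type. Atp5b, the catalytic beta subunit, was at 9.86 and 9.66 against 9.06 and 9.87, so that wild-type replicate 1 was the lowest of the 4 arrays. Atp5c1, the gamma subunit of the shaft, was at 9.87 and 9.88 against 9.94 and 10.09. The small shaft subunits Atp5d and Atp5e had the array pattern, with 5.73 and 6.91 against 6.91 and 5.75 for Atp5e. In the peripheral stalk, 3 of 4 genes had it, and Atp5o, which links the stalk to the head, did so within 0.22 log2 units (7.36 and 7.58 against 7.46 and 7.36).

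Other probe sets bear on how far the array pattern depends on the choice of probes. The members have 147 probe sets with 1 gene symbol, of which 91 had both high arrays above both low arrays. Of the 43 members with several probe sets, 30 had the same sign of the genotype difference on all of them, and no member had probe sets that differed without overlap in opposite directions. Uqcrq, a complex III subunit that was flat on its chosen probe set (6.26 and 6.25 against 6.32 and 6.24), was at 5.11 and 6.11 against 6.80 and 5.71 on another. The suffix of that other probe set marks probes shared by several transcripts, and Uqcrq was singled out after its values were seen.

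The genes around the chain did not all share the pattern. Of 48 cytosolic ribosomal protein genes, 28 (58.3%) were higher on both wild-type replicate 1 and AhR-deficient replicate 2 than on both other arrays, and of 74 mitochondrial ribosomal protein genes, 27 (36.5%) were, beside 18.4% of all genes. Of 15 genes of the citrate cycle and pyruvate dehydrogenase, which supply the NADH, 0 had this order and 9 had the reverse. Among 38 proteasome genes, 3 had it and 13 the reverse. Assembly factors, which build the complexes and are not part of them, had it in 11 of 33 and the reverse in 6. Of the 15 regulators of mitochondrial DNA and biogenesis, among them Ppargc1a, Nrf1, Gabpa and Tfam, 3 had it and 3 the reverse. For 17 glycolysis genes the counts were 2 and 0, and their highest array was wild-type replicate 1 in 11. These counts are descriptions and no difference between lists was tested.

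Nuclear genes of the chain are known to carry binding sites for NRF1 and for ETS factors such as GABP near their starts, so the stretch of 250 bases before the start was searched. RefSeq sequences (GRCm38.p6) were matched for 64 of the 78 members. The 4 stretches below are shown because all 4 hold the NRF1 consensus and their genes differ in the array pattern. On the chosen probe sets, Atp5h and Cox6a1 had that pattern and Sdha and Sdhd of complex II did not. Capitals mark matches on either strand. The motifs searched were that consensus, the ETS letters CCGGAAG, the YY1 letters AAGATGGCG and the core bound by the AhR and its partner Arnt, TNGCGTG. No marked match overlaps another.
Atp5h, chr11:115419920-115420169, minus strand: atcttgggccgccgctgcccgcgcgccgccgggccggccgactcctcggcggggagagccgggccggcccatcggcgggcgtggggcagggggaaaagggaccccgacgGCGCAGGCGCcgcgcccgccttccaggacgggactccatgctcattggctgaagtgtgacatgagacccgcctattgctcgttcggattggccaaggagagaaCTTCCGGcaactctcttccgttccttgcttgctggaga
Cox6a1, chr5:115348959-115349208, minus strand: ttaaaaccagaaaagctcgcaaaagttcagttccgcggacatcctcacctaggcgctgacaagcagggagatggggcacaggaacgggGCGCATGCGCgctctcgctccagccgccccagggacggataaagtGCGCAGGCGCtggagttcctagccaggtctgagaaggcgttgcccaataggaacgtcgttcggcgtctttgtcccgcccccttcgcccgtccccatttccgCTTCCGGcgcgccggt
Sdha, chr13:74350241-74350490, minus strand: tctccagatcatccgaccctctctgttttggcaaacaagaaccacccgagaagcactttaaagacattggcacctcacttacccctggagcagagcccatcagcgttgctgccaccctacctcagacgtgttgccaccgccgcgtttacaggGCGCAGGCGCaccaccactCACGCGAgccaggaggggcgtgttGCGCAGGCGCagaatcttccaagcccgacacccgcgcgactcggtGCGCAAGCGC
Sdhd, chr9:50603850-50604099, minus strand: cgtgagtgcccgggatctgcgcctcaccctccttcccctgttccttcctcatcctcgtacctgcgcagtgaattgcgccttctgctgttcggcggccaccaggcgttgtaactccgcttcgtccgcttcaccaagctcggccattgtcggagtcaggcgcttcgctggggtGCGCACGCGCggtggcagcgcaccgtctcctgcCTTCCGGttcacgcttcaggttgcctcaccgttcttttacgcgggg

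The NRF1 consensus was found in 10 of the 64 matched members (15.6%), in 7.63% of 9888 matched genes of the array and in 3.74% of all 32851 stretches of this length. The ETS letters were found in 12 members (18.8%), against 12.9% and 6.91%. The AhR core letters were found in 5 members (7.81%), against 6.98% and 4.10%, and those 5 were Atp5md, Ndufa3, Ndufa7, Sdha and Sdhb. The YY1 letters were found in 1 member, Atp5j. Among the 44 matched members with the array pattern, 6 held the NRF1 consensus and 10 the ETS letters, and among the 20 others, 4 and 2 did. A match describes letters and shows no binding, and these counts were not tested.

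Between the genotypes, no subunit gene passed. In limma, 0 of the 78 had an adjusted p under 0.05, where among all genes 0.0% rose and 0.0323% fell, and the smallest adjusted p of a member was 0.737. At an unadjusted p under 0.05, 1 was higher and 2 were lower, where 3.5% of all genes were higher and 3.04% lower. The genotypes did not overlap, with the values without the receptor lower, for 6 members (7.69%), against 16.6% of all genes, and with those values higher for 4 (5.13%), against 18.8%. Fewer members than genes in general thus separated the genotypes. The array order seen in 50 members and its reverse in 8 both make the genotypes overlap. The low count is therefore not a result separate from the array pattern. With 2 arrays per genotype, an exact permutation test of a single gene cannot give a two-sided p under 0.333.

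**Figure D4:**
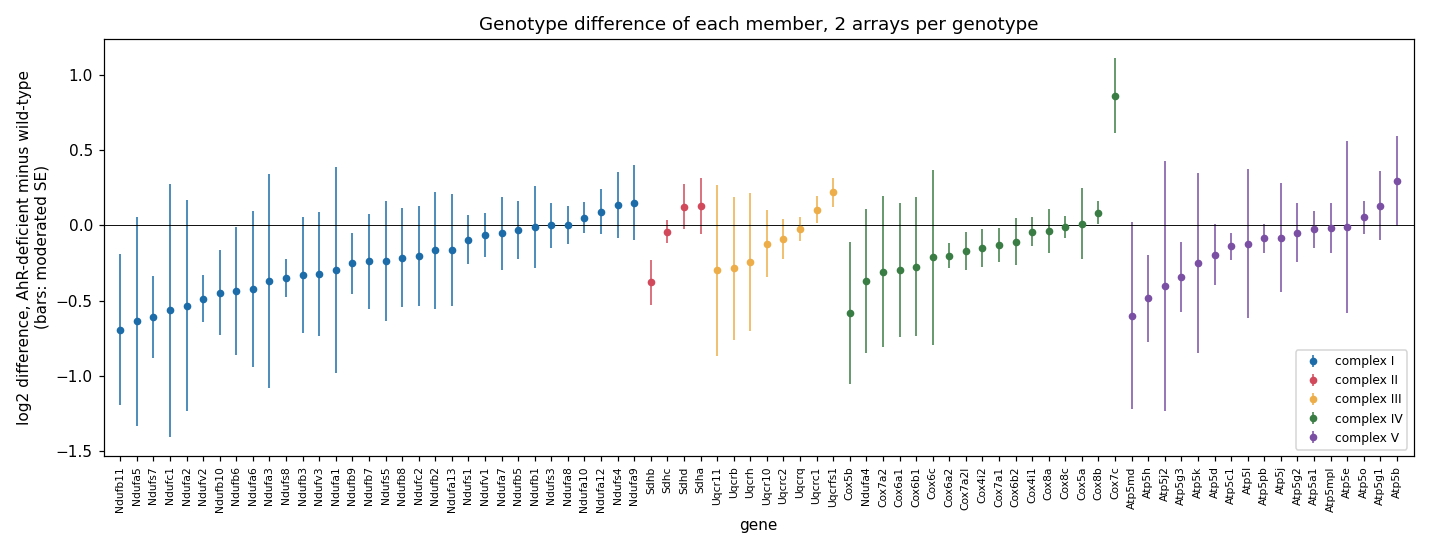
Log2 difference of each of the 78 genes (x axis, by complex), AhR-deficient minus wild-type, with limma's moderated SE as bars and 2 arrays per genotype. The other points lie between -0.69 and 0.30, with bars that are wide for accessory subunits, and Cox7c stands at 0.86.

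The sign of the difference leaned lower in AhR-deficient cells, but this rested on single arrays. The median over the 78 genes was -0.16, where that over all genes was 0.01, and the difference was below 0 for 62 of them (79.5%), against 47.8% of all genes. Without wild-type replicate 1 the median was 0.09 with 29 genes below 0, and without AhR-deficient replicate 1 it was 0.04 with 33 below 0. Without AhR-deficient replicate 2 it was -0.35 with 60 below 0, and without wild-type replicate 2 it was -0.42 with 65 below 0. By complex, the medians were -0.24 for complex I, 0.04 for complex II, -0.11 for complex III, -0.15 for complex IV and -0.09 for complex V. Without wild-type replicate 1 they were 0.13, -0.06, 0.11, 0.08 and 0.14 in that order, and without AhR-deficient replicate 1 they were 0.02, -0.09, 0.07, 0.06 and 0.11.

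The 6 members that lay lower without overlap included 3 of the 6 core subunits of complex I, where 16.6% of all genes lay lower in this way. A count of 3 in so small a group, picked out with results known, is a description. Ndufv2, an iron-sulfur subunit of the NADH-oxidising module, was at 8.32 and 8.60 without the receptor, against 9.09 and 8.79 in the wild type. The difference was -0.49 (SE 0.16, limma adjusted p = 0.795). All 3 of its probe sets lay lower in both AhR-deficient arrays, and the difference ranged from -0.64 to -0.34 when 1 array was left out. Ndufs8, which carries clusters close to ubiquinone, was at 9.29 and 9.37 against 9.83 and 9.53. Its difference was -0.35 (SE 0.13, limma adjusted p = 0.831), and 4 of its 6 probe sets lay lower without overlap, while another of them differed by 0.10. Ndufs7, which holds the last cluster before ubiquinone, was at 7.46 and 7.56 against 8.50 and 7.74, so that its size rests largely on wild-type replicate 1. Its difference of -0.61 (SE 0.27, limma adjusted p = 0.859) was -0.23 without that array, and both of its probe sets lay lower. None of the 3 passed, and the other core subunits Ndufv1, Ndufs1 and Ndufs3 overlapped between genotypes, with differences of -0.06, -0.09 and 0.00.

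Among the accessory subunits of complex I none separated the genotypes on its chosen probe set. Ndufb10, with the smallest p of these, was at 6.55 and 6.79 without the receptor, against 7.50 and 6.73 in the wild type, a difference of -0.45 (SE 0.28) that was -0.06 without wild-type replicate 1. The probe sets of Ndufa12 disagreed in size and in overlap. Its chosen probe set differed by 0.09 (SE 0.15), and another was at 6.02 and 5.90 against 4.92 and 5.03, a difference of 0.98 (SE 0.09, limma adjusted p = 0.256). This other probe set separated the genotypes, as did other probe sets of Ndufa10 and Ndufb9, higher in AhR-deficient cells by 0.15 (SE 0.10) and 0.07 (SE 0.08). Ndufa12, Ndufa10 and Ndufb9 were singled out after their values were seen.

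**Figure D5:**
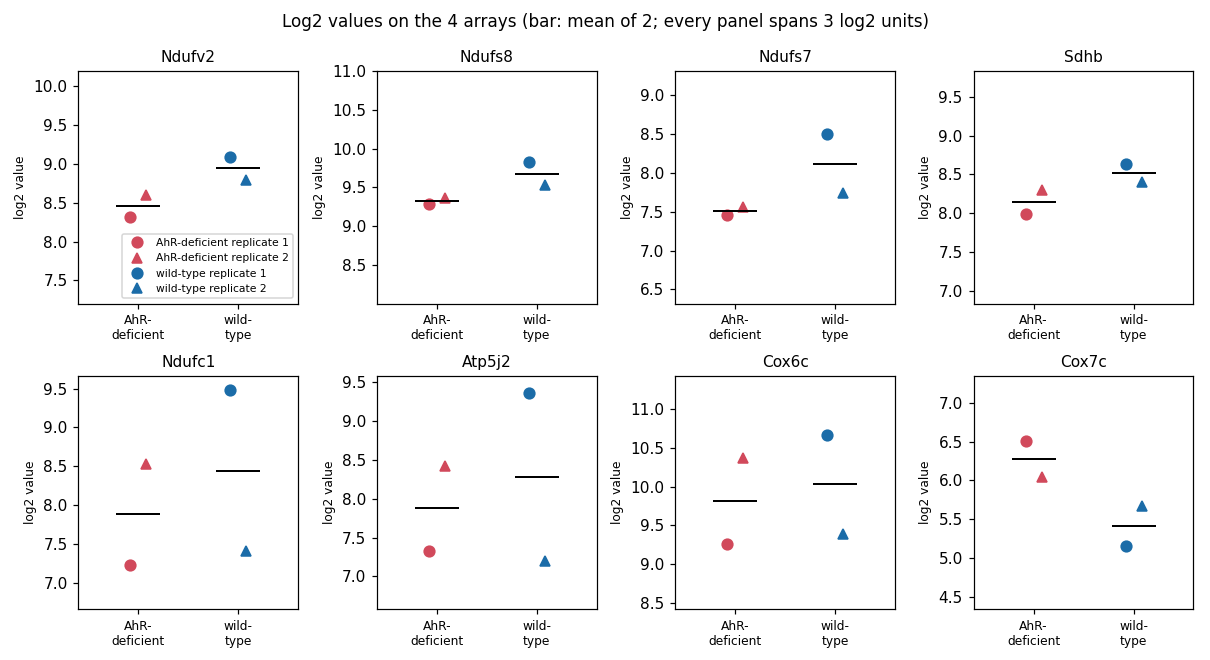
Log2 values of 8 genes in AhR-deficient (red) and wild-type (blue) cells, circles for replicate 1, triangles for replicate 2 and bars for the mean of 2, with every panel spanning 3 log2 units. In the upper row (Ndufv2, Ndufs8, Ndufs7, Sdhb) the red symbols lie below the blue ones, in Ndufc1, Atp5j2 and Cox6c each genotype holds a high and a low array, and Cox7c is higher in AhR-deficient cells.

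In complex II, Sdhb, the iron-sulfur subunit, was at 7.996 and 8.30 without the receptor, against 8.64 and 8.41 in the wild type. The difference was -0.38 (SE 0.15, limma adjusted p = 0.856), with no overlap. Its partner Sdha, the flavoprotein that oxidises succinate, was at 9.45 and 8.96 against 9.03 and 9.12, and its other probe set differed by -0.29, so the gene has no settled direction. The membrane anchors Sdhc and Sdhd differed by -0.04 (SE 0.08) and 0.13 (SE 0.15), and both overlapped.

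In complex III the genotypes did not overlap for Uqcrfs1 and Uqcrc1. Uqcrfs1 differed by 0.22 (SE 0.10, limma adjusted p = 0.857) and Uqcrc1 by 0.11 (SE 0.09). Both were thus higher in AhR-deficient cells, the opposite sign to the iron-sulfur subunits of complexes I and II. Uqcrc2 differed by -0.09 (SE 0.13) and Uqcrb by -0.28 (SE 0.48).

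In complex IV, Cox7c had the greatest difference between genotypes on the chosen probe sets. It was among the 16 members with a difference above 0. Its log2 value was 6.51 and 6.04 without the receptor, against 5.15 and 5.67 in the wild type, so that wild-type replicate 1, the highest array for most members, was the lowest here. The difference was 0.86 (SE 0.25, limma adjusted p = 0.737), and it ranged from 0.60 to 1.13 when 1 array was left out. These values lay around the array medians of 5.60 to 5.63, and the other general forms of complex IV all read higher. The suffix of this chosen probe set also marks probes shared by several transcripts. The other probe set, in the dimmest 25%, also separated the genotypes in this direction, at 3.81 and 3.84 against 3.59 and 3.64. Cox6a2 differed by -0.20 (SE 0.08) without overlap, Cox8b by 0.08 (SE 0.08) without overlap, Cox5b by -0.58 (SE 0.47) and Cox7a2l by -0.17 (SE 0.13). None of these passed.

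On the chosen probe sets of complex V the genotypes were separate for Atp5c1, with a difference of -0.14 (SE 0.09, limma adjusted p = 0.892) that its other probe set did not share (0.00). The second probe set of Atp5d, a small shaft subunit, was at 7.88 and 8.11 against 8.55 and 8.21. That is a difference of -0.39 (SE 0.16) without overlap, while the chosen probe set of Atp5d overlapped (-0.19, SE 0.20). Atp5h, a stalk subunit, differed by -0.48 (SE 0.29), Atp5g3 by -0.34 (SE 0.23) and Atp5b by 0.30 (SE 0.30). The value for Atp5b rests on wild-type replicate 1, which lay below the other 3 arrays. The differences of Atp5a1 and Atp5o were -0.03 (SE 0.12) and 0.05 (SE 0.11).

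Electrons also reach ubiquinone by other routes, and the one gene of the surrounding pathway that passed lies there. Of 8 measured donors to ubiquinone, 1 fell and 0 rose, where 0.0323% of all genes fell (4 genes) and 0.0% rose. This list was chosen with earlier results of these data known, so the count is a description. Gpd2, the mitochondrial glycerol-3-phosphate dehydrogenase that feeds cytosolic reducing power into the chain, was at 8.15 and 8.02 without the receptor, against 10.72 and 10.69 in the wild type. It fell by 2.62 (SE 0.09, limma adjusted p = 0.0403), and leaving out any of the 4 arrays ended the call with differences from -2.68 to -2.56. The call was also lost with the replicate number as a block, and with 16 added to the unlogged values. Etfdh, which passes on electrons from fatty acid oxidation, was at 8.52 and 8.40 against 8.02 and 8.08, a difference of 0.41 (SE 0.09) that did not pass. Gpd2 was even within each genotype and did not share the array pattern of the subunits.

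In the other lists of mitochondrial genes 0 passed in limma in either direction. These lists were 33 assembly factors, 5 carriers and subunits outside the symbol families, 8 genes of coenzyme Q synthesis, 15 of the citrate cycle and pyruvate dehydrogenase, 15 regulators, 8 nucleotide, phosphate and uncoupling carriers, 74 mitochondrial ribosomal proteins and 21 import genes. Their median differences were -0.04, -0.13, -0.01, 0.00, -0.04, -0.00, -0.07 and -0.04, in that order. At an unadjusted p under 0.05, 3 of these 179 genes were higher and 4 lower, where 3.5% and 3.04% of all genes were, so the count is below that of genes in general. Sdhaf1, an assembly factor for the iron-sulfur cluster of Sdhb, was at 6.58 and 6.76 without the receptor, against 6.03 and 6.20 in the wild type, a difference of 0.56 (SE 0.11), with the opposite sign to Sdhb. Mdh2, the mitochondrial malate dehydrogenase, differed by -0.35 (SE 0.09), Mrpl41 by -0.81 (SE 0.22) and Ppargc1b, a coactivator of mitochondrial genes, by -0.24 (SE 0.09). Cycs, which encodes cytochrome c, was at 9.69 and 10.20 against 10.39 and 9.97, with high values on the same arrays as most subunits.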

How the data were processed

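Each sample is 1 Affymetrix MOE430A array, hybridised with amplified, biotin-labelled RNA per the labels' protocols. The authors deposited 1 log2 value for every probe set. Their processing notes on GEO list the affy package and RMA, whose versions are not given in the sources used here. Array medians were 5.60 to 5.63, and no further scaling was applied. Of 22690 probe sets, 64 controls were left out. Symbols came from the platform annotation, which gave 1 symbol to 20380 probe sets. A further 7 probe sets name a gene of these families together with another symbol and were not used. Ndufb4, Ndufa11 and Ndufs6 of complex I had only such probe sets and are therefore not among the members. Genotypes were compared over all 22626 probe sets with limma 3.58.1 in R 4.3.3 (lmFit, eBayes, two-sided, 2 residual and 2.27 prior degrees of freedom), with Benjamini-Hochberg adjustment. The median SE was 0.10 over all probe sets and 0.24 over the members, where the highest was 0.84. The number of arrays limits the precision. The steps were tested on simulated data. Counts over all genes use 1 probe set per gene. Alternatives included other scalings, a replicate block and leaving out each array.

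The members and lists were chosen with earlier results of these data known. The naming rule took the genes with the smallest p in each complex (4, or all of complex II), a fixed set of central subunits and isoforms, and the 2 smallest p of each list. Genes outside this rule were also named, and some of them are marked as chosen later. Cox6c, Atp5j2, Atp5d, Atp5e, Ndufs3, Csf1r and Cd3d are among those that are not marked, so their choice may reflect their values.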

Additional observations from a re-analysis of the deposited data

How the results depend on the processing

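Under all 15 alternatives 0 members passed adjustment in limma. The median of -0.16 stayed below 0 except without AhR-deficient replicate 1 or wild-type replicate 1, with a range of -0.42 to 0.09 on leaving out 1 array, and the count below 0 then ranged from 29 to 65. By complex that range was -0.61 to 0.13 (I), -0.09 to 0.08 (II), -0.27 to 0.11 (III), -0.29 to 0.08 (IV) and -0.43 to 0.14 (V). The cause was not tested, and a lone array was assumed to vary like those of the other genotype. Of 37 named members, 20 had another sign in at least 1 of those fits. A replicate block left, at an unadjusted p under 0.05, 0 members higher and 0 lower, and 0 probe sets passing. Same-numbered arrays deviated in opposite directions over all probe sets (r = -0.31), so the numbers were not taken to pair samples. The crossed pairing, added after the data were seen, gave 11 members lower, where 3.59% of all genes were, and also 0 probe sets passing. That count of members lower was 0 with a trend in eBayes, 1 with robust eBayes, with the dimmest 25% left out and with the mean of all probe sets, which gave 2 higher. It ranged from 0 to 16, and the count higher from 0 to 3, on leaving out 1 array, while the shares of all genes ranged from 2.24% to 3.46% and from 2.15% to 5.01%. The 16 came without wild-type replicate 2 (3.46% of all genes). Subtracting array medians gave 10 members lower without overlap in place of 6, with 18.9% of all genes in place of 16.6%. Leaving out probe sets with the suffixes s, x or a kept 59 members, with 2 higher and 0 lower, 40 below 0 and 33 with the array pattern. Signal over background limits the tissue forms, as no detection call was given.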
